A study of Mus musculus with 19 samples.

Results

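The hippocampal RNA of 4 APP/PS1 A2A mice was compared with that of 5 APP/PS1 mice, which together are 9 of the 19 mice sequenced. Mice entered by their genotype label alone, no measured value was used, and the comparison covers all 18529 genes with enough reads for a test. Both groups carried APPswe/PS1dE9, the transgenes that give these mice amyloid, heterozygous on a C57Bl6/J background. Only APP/PS1 A2A mice carried TRE-A2A as well, a cDNA of the mouse adenosine A2A receptor behind a Tet-responsive element. All mice were females. At 3 months of age each received an AAV2/5 vector in CA1 of both dorsal hippocampi, with the tTA transactivator behind the chicken beta-actin promoter, so the APP/PS1 mice received tTA without the allele it acts on. The promoter is active in many cell types, and it is the vector that favours neurons. Hippocampi were taken at 6 months, and each library is 1 mouse. The other groups, 5 A2A and 5 WT mice, received the same vector and are used here to set the same receptor contrast beside the one on the amyloid background.

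The A2A receptor couples to the stimulatory G protein and raises cAMP, which activates protein kinase A and the transcription factor CREB. It is abundant in the striatum and sparse in the hippocampus, where it acts at glutamatergic synapses, and its level is known to rise in the aged and Alzheimer brain. APP/PS1 mice deposit amyloid, which microglia and astrocytes surround and respond to. The comparison asks what a neuronal excess of the receptor does to the transcriptome once amyloid pathology has begun.

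Depth was 36502915 to 53717373 counts per mouse in APP/PS1 A2A and 30251406 to 50062369 in APP/PS1. Levels are given in CPM (counts scaled to one common library size) and are not divided by gene length, so they compare mice and not genes. APP/PS1 A2A replicate 1 stood apart before any group comparison. Its summed dentate granule cell markers reached 1041 CPM, against 341 to 597 CPM in the other 3 mice of its group and 438 to 769 CPM in APP/PS1. Its CA2 and CA3 markers were the lowest of its group, at 344 CPM against 536 to 618.02 CPM in the other 3. For these markers it lay within the APP/PS1 range of 306 to 633 CPM. Choroid plexus genes summed to 66.7 CPM in it and to 1039 to 4009 CPM in the rest of its group, while the APP/PS1 mice spanned 239.8 to 10662 CPM with replicate 4 highest. Red blood cell genes summed to 6.22 to 17.6 CPM in APP/PS1 A2A, against 12.4, 99.998, 15.5, 30.5 and 272 CPM in APP/PS1 replicates 1 to 5, so that replicates 2 and 5 of APP/PS1 were far above all others. Values without a mouse that stood apart are given beside the main results and many of the genes in which that mouse was far above the rest.

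**Figure D1:**
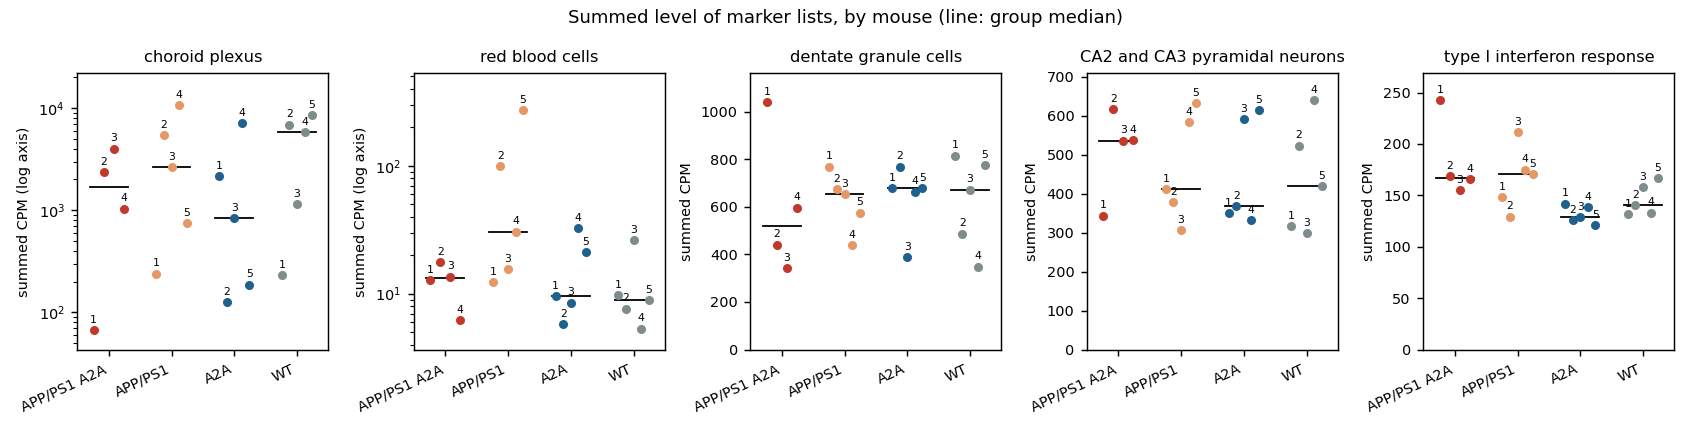
Summed level of 5 marker lists in each mouse (points, numbered by replicate; line, group median), in CPM on a log axis for the choroid plexus and red blood cell lists and on a linear axis for the others. APP/PS1 A2A replicate 1 is highest for dentate granule cell and interferon genes and lowest for choroid plexus genes, and APP/PS1 replicate 5 is highest for red blood cell genes at 272 CPM.

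The receptor gene itself was read first. Adora2a had 10.3, 1.96, 1.27 and 1.53 CPM in APP/PS1 A2A mice, against 1.62, 1.43, 1.83, 1.15 and 1.57 CPM in APP/PS1 mice. One APP/PS1 A2A mouse, replicate 1, was thus far above the other 8, which overlapped. The log2 fold change was 1.30 (SE 0.60, 95% interval 0.05 to 2.55, adjusted p = 0.9999). Without that mouse it was 0.07. In the groups without amyloid, A2A mice had 9.35, 1.96, 2.27, 2.18 and 0.865 CPM and WT mice 1.27, 1.42, 1.09, 1.54 and 1.48 CPM, again with 1 A2A mouse high. The TRE-A2A cDNA is an optimised sequence for the same protein, so its transcripts may not align to Adora2a, and this gene is no check of the transgene. Drd1, the dopamine D1 receptor of striatal neurons and of the dentate gyrus, had 25.9, 6.31, 6.90 and 3.85 CPM in APP/PS1 A2A mice, against 4.99, 11.1, 9.08, 6.85 and 4.39 CPM in APP/PS1 mice, also highest in APP/PS1 A2A replicate 1. Without that mouse its log2 fold change was -0.35. The 15 striatal neuron markers summed to 403 to 447 CPM in APP/PS1 A2A and 416 to 481 CPM in APP/PS1, so the groups overlapped, and the part of neighbouring tissue in the Adora2a value was not tested.

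The genes that can take reads of the amyloid transgenes overlapped between the groups. App, which can count reads of the APP transgene as well, had 3282, 4499, 4230 and 4360 CPM in APP/PS1 A2A mice, against 3527, 4473, 3430, 3717 and 4467 CPM in APP/PS1 mice, a log2 fold change of 0.06 with a 95% interval from -0.20 to 0.32. Its mean was 1557 CPM in A2A and 1622 CPM in WT mice, which carry no amyloid transgene. Prnp, the prion protein gene, whose regulatory sequences the transgenes carry, gave 0.05 (95% interval -0.17 to 0.26). App was at least 3282 CPM in the 9 mice labelled APP/PS1 or APP/PS1 A2A and at most 1920 CPM in the other 10. The 4 APP/PS1 A2A mice are told from the 5 APP/PS1 mice by their labels alone.

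**Figure D2:**
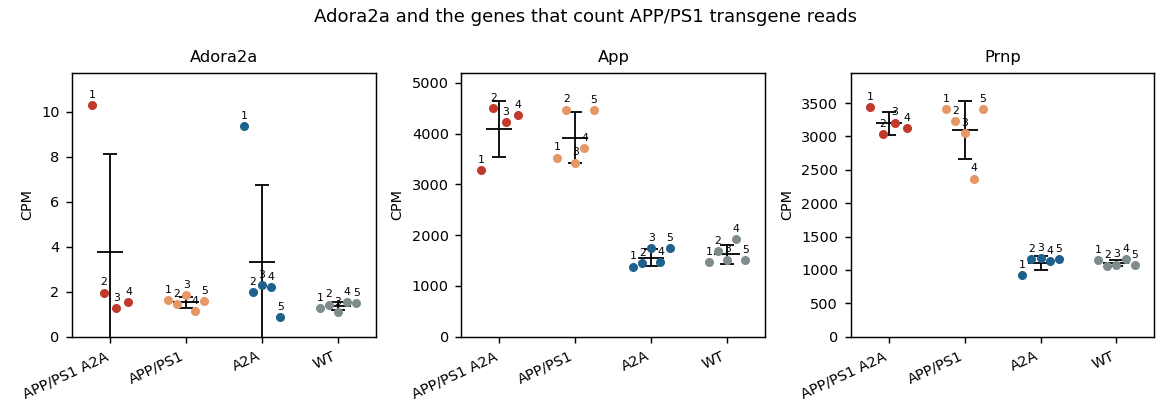
CPM of Adora2a, App and Prnp in each mouse (points, numbered by replicate), with the mean and SD of each group. APP/PS1 A2A replicate 1 and A2A replicate 1 are the high mice for Adora2a, and both APP/PS1 groups are above A2A and WT for App and Prnp and overlap with each other.

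Across the transcriptome no gene passed the test. edgeR's quasi-likelihood test called 0 of 18529 genes (0%) for an adjusted p below 0.05 with a log2 fold change beyond 0.32 either way, the smallest adjusted p being 0.9999. At an unadjusted p under 0.05 it gave 150 genes on the higher side (0.81%) and 382 on the lower side (2.06%), together 2.87% of the genes. DESeq2 with default options called 0 and had 662 genes at an unadjusted p under 0.05, and with a prior on fold changes it called 2, the haemoglobin genes Hba-a1 and Hba-a2. limma-voom called 0 without and 0 with sample quality weights, with 469 and 1060 genes at an unadjusted p under 0.05. The median gene had a log2 fold change of -0.01, and 90% of genes lay between -0.45 and 0.31. The 95% interval reached a median of 0.30 to either side on the log2 scale, so smaller differences could not be resolved for the typical gene. In 43 genes (0.232%) every APP/PS1 A2A mouse was above every APP/PS1 mouse, and in 89 (0.48%) every one was below. Every gene named missed the adjusted threshold, and each log2 fold change is given with its standard error or 95% interval from edgeR, where an interval that leaves out 0 matches an unadjusted p under 0.05. A value given for a gene without a unit is its log2 fold change. The adjusted p of every gene named was 0.9999 in this comparison. As the tissue was sequenced in bulk, fewer cells of a type and less RNA per cell cannot be told apart.

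**Figure D3:**
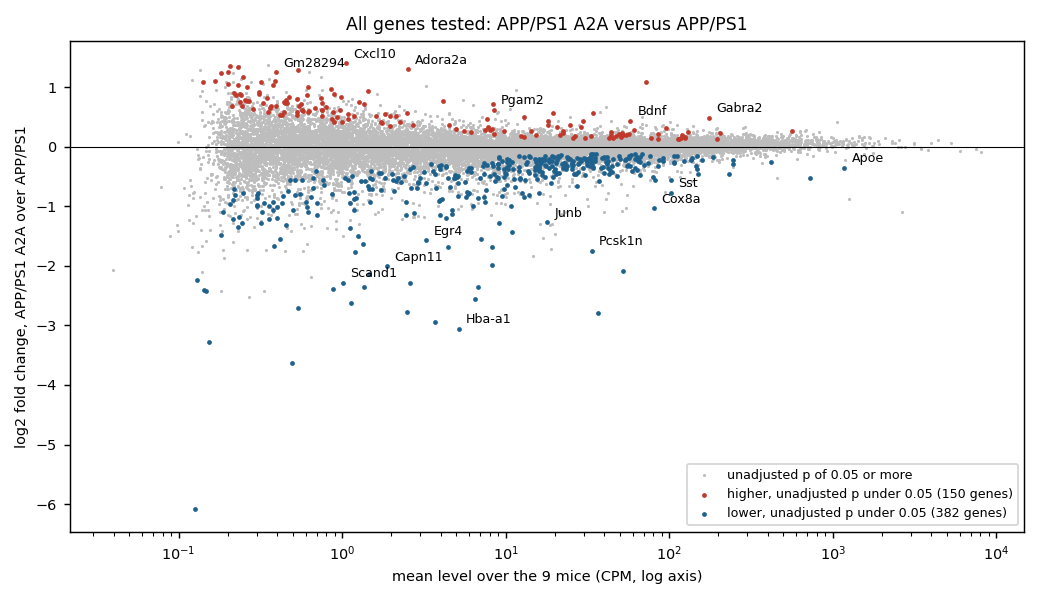
Log2 fold change of APP/PS1 A2A over APP/PS1 against the mean level over the 9 mice (CPM, log axis) for the 18529 genes tested, with those at an unadjusted p under 0.05 in colour. The 382 coloured genes on the lower side outnumber the 150 on the higher side, and none passed the adjusted threshold.

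The 382 genes on the lower side were mostly protein coding (338 of 382, 88.5%, against 82.2% over all genes tested) and had a median GC content of 56.5% and a median length of 1190 bases, against 50.2% and 1537 bases over all genes tested. The 150 on the higher side had a median of 49.2% and 1666 bases, and a median level of 1.31 CPM against 12.0 CPM on the lower side. Of the 324 lower genes above 1 CPM, 170 were highest, among the APP/PS1 mice, in replicate 1 and 217 were lowest in replicate 5. With offsets for GC content and length, 191 genes were on the higher and 338 on the lower side at the same threshold. Without APP/PS1 replicate 5 the counts were 317 and 710, still with 0 genes called, and the smallest adjusted p was 0.607. Without APP/PS1 replicate 1 they were 154 and 286, so the number of lower genes moved either way with the mouse left out.

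Several genes on the lower side shared an order among the APP/PS1 mice, with replicate 5 lowest. Pcsk1n, the prohormone convertase inhibitor proSAAS, had 11.7, 17.9, 16.8 and 11.8 CPM in APP/PS1 A2A mice, against 99.0, 51.9, 42.4, 33.9 and 17.5 CPM in APP/PS1 mice. The 4 APP/PS1 A2A mice were close together and low, while the APP/PS1 mice spread over a wide range whose lower end, replicate 5, lay within the APP/PS1 A2A range. Its log2 fold change was -1.75 (SE 0.46, 95% interval -2.71 to -0.79). A2A mice had 106, 70.5, 20.7, 51.9 and 69.1 CPM and WT mice 43.8, 53.0, 16.03, 38.4 and 37.2 CPM, and replicate 3 was the lowest mouse of both. Ccdc85b had 1.63, 2.94, 1.97 and 1.64 CPM in APP/PS1 A2A mice, against 24.1, 10.8, 7.16, 8.02 and 2.76 CPM in APP/PS1 mice, a log2 fold change of -2.36 (95% interval -3.63 to -1.09) with the same order among the APP/PS1 mice at both ends. Without APP/PS1 replicate 1, the highest mouse of its group for both, Pcsk1n gave -1.31 and Ccdc85b -1.79. Prr7, a proline-rich protein of the postsynaptic density, had 2.01, 2.15, 2.16 and 1.59 CPM in APP/PS1 A2A mice, against 13.4, 6.14, 5.67, 4.29 and 2.23 CPM in APP/PS1 mice (-1.68, 95% interval -2.67 to -0.69). Its groups did not overlap, yet APP/PS1 replicate 5 was just above the highest APP/PS1 A2A mouse. Tpgs1, a subunit of the tubulin polyglutamylase complex, gave -1.28 (95% interval -2.04 to -0.52) and Scand1 -2.29 (95% interval -3.65 to -0.93), both without overlap. Tlnrd1 gave -0.68 (95% interval -1.05 to -0.32) without overlap.

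Other genes of smallest p on the lower side were of varied kinds. Smtn, smoothelin of contractile smooth muscle, had 3.88, 4.61, 3.63 and 4.65 CPM in APP/PS1 A2A mice, against 8.23, 5.47, 9.70, 6.58 and 5.70 CPM in APP/PS1 mice, with no overlap, a log2 fold change of -0.76 and the smallest p on the lower side (95% interval -1.13 to -0.40). APP/PS1 replicate 3 was highest for it. In A2A against WT mice the same gene gave -0.53 (95% interval -0.87 to -0.18), and the difference between the 2 effects was -0.24 (95% interval -0.74 to 0.26). Trib2, a pseudokinase, had 23.6, 30.8, 32.3 and 28.1 CPM in APP/PS1 A2A mice, against 34.3, 37.4, 36.7, 37.2 and 33.2 CPM in APP/PS1 mice, no overlap between the groups (-0.32, 95% interval -0.50 to -0.13). Id1, an inhibitor of helix-loop-helix factors, had 2.90, 2.56, 3.199 and 2.63 CPM in APP/PS1 A2A mice, against 7.66, 5.67, 7.22, 7.56 and 2.88 CPM in APP/PS1 mice (-1.13, 95% interval -1.79 to -0.47), where APP/PS1 replicate 5 again lay with the APP/PS1 A2A mice. Pomc, the precursor of melanocortins and beta-endorphin, gave -2.78 (95% interval -4.42 to -1.13), but APP/PS1 replicate 4 stood at 16.4 CPM and no other mouse of the 9 above 1.21 CPM. Without that mouse it gave -0.70. Gm47283 (-1.64, 95% interval -2.58 to -0.69) is annotated on the Y chromosome while the mice were females, so the origin of its reads is uncertain.

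**Figure D4:**
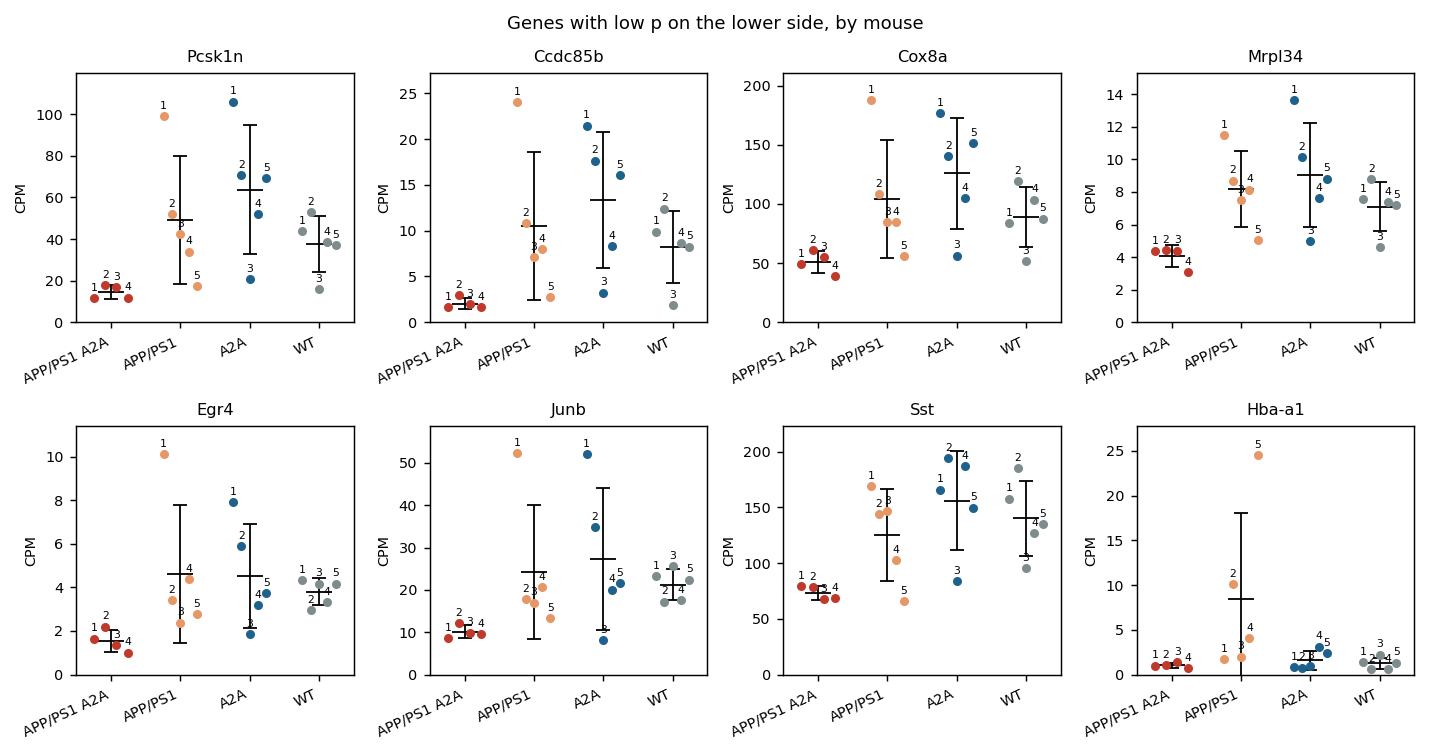
CPM of 8 genes from the lower side in each mouse (points, numbered by replicate), with the mean and SD of each group. The 4 APP/PS1 A2A mice are tightly grouped and low. APP/PS1 replicate 5 lies close to them for Pcsk1n, Ccdc85b, Cox8a, Mrpl34 and Sst, and is the highest mouse for Hba-a1.

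On the higher side, 9 of the 15 genes of smallest p were non-coding RNAs below 3 CPM, together with 1 locus annotated only as to be experimentally established. Gm28294, an antisense RNA, had 0.542, 0.490, 0.499 and 0.796 CPM in APP/PS1 A2A mice, against 0.227, 0.233, 0.310, 0.240 and 0.212 CPM in APP/PS1 mice, no overlap, a log2 fold change of 1.25 and the smallest p of all (95% interval 0.71 to 1.78). Whether the counting used the strand is not given in the sources used here, so reads of antisense genes and of their partners may not be separable. Pgam2, the muscle form of phosphoglycerate mutase in glycolysis, had 15.4, 8.51, 7.60 and 10.4 CPM in APP/PS1 A2A mice, against 7.04, 6.60, 7.68, 5.17 and 7.59 CPM in APP/PS1 mice. Its groups overlapped only at APP/PS1 A2A replicate 3 and APP/PS1 replicate 3, and it gave 0.62 (SE 0.19, 95% interval 0.22 to 1.01). Without APP/PS1 A2A replicate 1 the value was 0.37. Strc, stereocilin of inner ear hair cells, gave 0.57 (95% interval 0.17 to 0.97). Smyd4, a methyltransferase of the SET and MYND family, had 23.8, 20.6, 27.6 and 20.99 CPM in APP/PS1 A2A mice, against 15.7, 20.9, 16.5, 19.6 and 19.8 CPM in APP/PS1 mice (0.33, 95% interval 0.09 to 0.56). Pimreg, a mitotic regulator, gave 1.36 (95% interval 0.37 to 2.34) at a mean of 0.314 CPM in APP/PS1 A2A and 0.121 CPM in APP/PS1, with APP/PS1 A2A replicate 1 highest. Without that mouse Pimreg gave 0.70 and was no longer at the unadjusted threshold.

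Immediate early genes, which neurons transcribe within minutes of activity and many of which CREB and serum response factor control, lay to the lower side as a list. Of 24 genes 21 were negative and 3 positive, with a median of -0.38 against -0.01 over all genes. At an unadjusted p under 0.05, 4 of 24 were lower and 1 was higher, beside 2.06% and 0.81% of all genes. Egr4, a zinc finger factor, had 1.65, 2.204, 1.36 and 1.01 CPM in APP/PS1 A2A mice, against 10.1, 3.43, 2.39, 4.39 and 2.78 CPM in APP/PS1 mice. No APP/PS1 A2A mouse reached the lowest APP/PS1 mouse, and the log2 fold change was -1.57 (SE 0.42, 95% interval -2.46 to -0.68). Junb, a subunit of AP-1, had 8.59, 12.2, 9.91 and 9.58 CPM in APP/PS1 A2A mice, against 52.3, 17.8, 17.0, 20.7 and 13.3 CPM in APP/PS1 mice, also without overlap (-1.26, SE 0.42, 95% interval -2.15 to -0.38). APP/PS1 replicate 1 was by far the highest mouse for both, and without it Egr4 gave -1.05 and Junb -0.76. Jund gave -0.999 (95% interval -1.72 to -0.28) and Gadd45g, a stress-induced regulator, -0.47 (SE 0.18), the last named after its values were seen. The classical activity genes had wide errors, with Fos at -0.67 (SE 0.69), Arc at -0.50 (SE 0.54) and Npas4 at -0.46 (SE 0.45), all 3 also named after their values were seen. Bdnf, a neurotrophin, was the 1 on the higher side, with 103, 48.7, 63.8 and 54.7 CPM in APP/PS1 A2A mice, against 52.7, 46.7, 37.2, 48.2 and 63.8 CPM in APP/PS1 mice (0.44, 95% interval 0.08 to 0.79). It was highest in APP/PS1 A2A replicate 1 and gave 0.17 without that mouse. The list median was -0.14 without APP/PS1 replicate 1 and -0.36 without APP/PS1 replicate 5, and in A2A against WT mice it was -0.06.

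The promoters of Egr4 and Junb, the early genes of smallest p, are shown because cAMP acts through the cAMP response element, TGACGTCA, and its short form, TGACG. Capitals mark the match on either strand in the 150 bases before the RefSeq start, on the minus strand of GRCm38.p6.
Egr4, chr6:85513590-85513739: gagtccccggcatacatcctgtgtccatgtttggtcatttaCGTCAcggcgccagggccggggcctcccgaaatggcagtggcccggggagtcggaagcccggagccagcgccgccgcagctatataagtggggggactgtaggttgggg
Junb, chr8:84978749-84978898: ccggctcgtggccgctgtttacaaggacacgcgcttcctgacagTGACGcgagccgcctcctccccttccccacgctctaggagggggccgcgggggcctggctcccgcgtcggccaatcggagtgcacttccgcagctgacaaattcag
The short form lay 109 bases before the start of Egr4 and 106 bases before that of Junb. In windows from 250 bases before to 50 after the start, TGACG was found in either orientation in 14 of the 19 immediate early genes with a RefSeq promoter (73.7%) and in 32.5% of the 12924 tested genes with one. The whole element, TGACGTCA, was in 2 of the 19 (10.5%) and in 3.25% of all. The short form is part of every whole one, and a match is a description of the letters only.

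Some neuropeptides of interneurons were on the lower side too. Sst, somatostatin of a major class of GABAergic interneurons, had 79.1, 78.7, 67.6 and 68.7 CPM in APP/PS1 A2A mice, against 169, 144, 147, 102 and 65.8 CPM in APP/PS1 mice. The APP/PS1 A2A mice lay close together below 4 of the 5 APP/PS1 mice, while APP/PS1 replicate 5 was lower still (-0.77, SE 0.25, 95% interval -1.30 to -0.24). Cck, cholecystokinin, had 59.7, 58.3, 52.5 and 48.4 CPM in APP/PS1 A2A mice, against 116, 74.2, 64.3, 52.0 and 73.3 CPM in APP/PS1 mice (-0.47, 95% interval -0.81 to -0.13), and the somatostatin-related Cort gave -0.59 (95% interval -1.07 to -0.10). These were the only 3 of 16 interneuron genes at an unadjusted p under 0.05, all lower, beside 2.06% lower over all genes. The list's median was -0.05. With 1 mouse left out at a time it ran from -0.24 without APP/PS1 A2A replicate 1 to -0.002 without APP/PS1 replicate 2. Gad1, the main GABA-synthesising enzyme, gave -0.12 (95% interval -0.33 to 0.09) and the vesicular GABA transporter Slc32a1 -0.22 (95% interval -0.63 to 0.19). Sst is the textbook gene with a whole cAMP response element, shown here in the 150 bases before its RefSeq start with the element in capitals, 48 bases before the start on the minus strand.
Sst, chr16:23890845-23890994: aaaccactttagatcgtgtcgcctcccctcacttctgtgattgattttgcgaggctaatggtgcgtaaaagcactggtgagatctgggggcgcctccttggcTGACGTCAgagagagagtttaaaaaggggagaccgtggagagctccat

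Nuclear-encoded respiratory chain subunits mostly lay below 0, by small amounts. Over all 18529 genes 9684 were negative, 2.06% passed the unadjusted threshold of 0.05 on the lower side and 0.48% had every APP/PS1 A2A mouse below every APP/PS1 mouse. In complex IV, cytochrome c oxidase, 11 of 12 nuclear genes were negative, 3 of them at an unadjusted p under 0.05, and the median was -0.13. Cox5b had 20.2, 24.6, 20.6 and 16.8 CPM in APP/PS1 A2A mice, against 43.9, 36.7, 31.3, 27.7 and 22.2 CPM in APP/PS1 mice (-0.65, SE 0.19, 95% interval -1.04 to -0.26). Cox8a had 49.2, 61.1, 54.9 and 39.3 CPM in APP/PS1 A2A mice, against 188, 108, 84.8, 84.7 and 56.0 CPM in APP/PS1 mice (-1.03, 95% interval -1.72 to -0.34), and Cox6a1 gave -0.55 (95% interval -0.97 to -0.13). For all 3 APP/PS1 replicate 1 was highest and replicate 5 lowest of its group, inside the APP/PS1 A2A range. Without APP/PS1 replicate 1 Cox5b gave -0.51, Cox8a -0.70 and Cox6a1 -0.36, and Cox6a1 was no longer at the unadjusted threshold. In complex I, NADH dehydrogenase, 31 of 36 genes were negative and 5 were lower at an unadjusted p under 0.05, 4 of the 36 without overlap between the groups, with a median of -0.07. Ndufs3 had 25.1, 24.6, 23.5 and 24.8 CPM in APP/PS1 A2A mice, against 34.4, 32.5, 28.6, 29.5 and 25.1 CPM in APP/PS1 mice (-0.29, 95% interval -0.55 to -0.04), and Ndufb2 gave -0.24 (95% interval -0.42 to -0.06), Ndufs7 -0.32 (95% interval -0.57 to -0.07) and Ndufb5 -0.16 (95% interval -0.29 to -0.03). In complexes II and III only Uqcrq, a small subunit of complex III, passed the unadjusted threshold (-0.40, 95% interval -0.70 to -0.11), 1 of 14. ATP synthase had 14 of 16 genes negative, 3 of them below that threshold, with a median of -0.09 and Atp5k at -0.32 (95% interval -0.61 to -0.03). Without APP/PS1 replicate 1, complex I, complex IV and ATP synthase had 3, 2 and 1 genes lower at the threshold, beside 286 of all genes. Their medians were then -0.07, -0.13 and -0.07. Without APP/PS1 replicates 2 and 5, complexes II and III had 7 positive and 7 negative genes, and complex IV 1 and 11.

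Proteins of the mitochondrial ribosome showed the same sign, with 65 of 77 genes negative, 10 of them at an unadjusted p under 0.05, and a median of -0.06. Without APP/PS1 replicate 1, 5 were lower at that threshold, beside 286 of all genes, with a median of -0.04. Without APP/PS1 replicate 5, 14 were, beside 710 of all genes, with a median of -0.06. Mrpl34, of its large subunit, had 4.39, 4.45, 4.40 and 3.08 CPM in APP/PS1 A2A mice, against 11.5, 8.70, 7.50, 8.15 and 5.03 CPM in APP/PS1 mice, without overlap (-1.001, SE 0.26, 95% interval -1.54 to -0.46), and Mrpl52 and Mrps12 gave -0.71 (95% interval -1.25 to -0.16) and -0.45 (95% interval -0.76 to -0.13). Cytosolic ribosomal proteins had 65 of 83 genes negative, a median of -0.08 and 3 genes at that threshold, Rplp1 (-0.37, 95% interval -0.61 to -0.13), Rplp2 (-0.51, 95% interval -0.92 to -0.10) and Rpl27 (-0.57, 95% interval -1.08 to -0.07). Many of these genes have pseudogenes that can take their reads, so their levels are uncertain. Without APP/PS1 A2A replicate 1, 21 of the 83 were lower at the threshold, beside 552 lower genes over the whole table under the same setting, and the median was -0.17. Rpl27, highest of its group in that mouse, then gave -0.77. Without APP/PS1 replicate 1 instead, 1 of the 83 was lower, beside 286 over the whole table, and the median was -0.05. The result for this list thus depended on single mice. The 7 tested genes carried by the mitochondrial DNA itself had a median of -0.04, and mt-Co1 gave -0.08 (95% interval -0.34 to 0.18) and mt-Nd1 -0.07 (95% interval -0.32 to 0.18). mt-Nd6, the one on the opposite strand from the rest of the list, had 102, 101, 114 and 111 CPM in APP/PS1 A2A mice, against 75.8, 72.2, 85.2, 87.3 and 109 CPM in APP/PS1 mice (0.32, 95% interval 0.07 to 0.57). In A2A against WT mice, where other libraries were used, the medians of the complex I, complex IV, ATP synthase and mitochondrial ribosomal lists were 0.12, 0.17, 0.09 and 0.09, on the higher side.

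**Figure D5:**
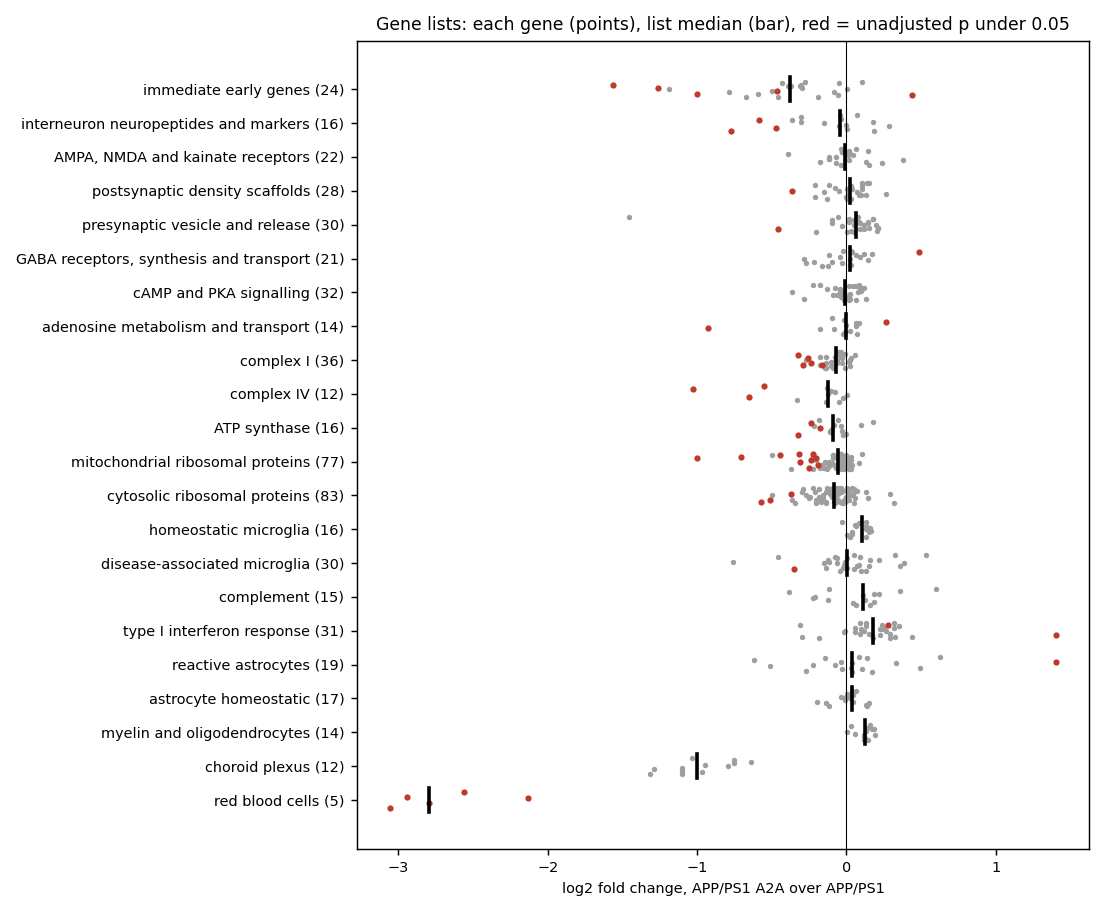
Log2 fold change of APP/PS1 A2A over APP/PS1 for each gene (points) of 22 lists, with the number of genes tested in brackets, the list median as a bar and genes at an unadjusted p under 0.05 in red. The red blood cell, choroid plexus and immediate early lists have the medians farthest from 0, and the synaptic lists are centred close to it.

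Most synaptic genes had small log2 fold changes of either sign. AMPA, NMDA and kainate receptor genes, 22 in all, had a median of -0.01, with 11 positive, 11 negative and 0 at an unadjusted p under 0.05. Of all genes, 0.81% were higher and 2.06% lower at that threshold. Gria1 had 1408, 1385, 1301 and 1445 CPM in APP/PS1 A2A mice, against 1425, 1156, 1024, 1123 and 1504 CPM in APP/PS1 mice (0.15, 95% interval -0.12 to 0.42). Gria2 gave 0.02 (95% interval -0.18 to 0.22), and the NMDA receptor genes Grin1, Grin2a and Grin2b gave 0.01, 0.13 and 0.15, with intervals from -0.20 to 0.23, -0.22 to 0.48 and -0.19 to 0.48. The 28 scaffold genes of the postsynaptic density had a median of 0.03 and 1 at the threshold, Camk2n2, an inhibitor of CaMKII (-0.36, 95% interval -0.72 to -0.01). Shank3 gave -0.15 (95% interval -0.44 to 0.14) and Homer1 0.00 (95% interval -0.36 to 0.36). Among 30 presynaptic genes the median was 0.07, and Sncb, beta-synuclein, was the 1 at the threshold (-0.46, 95% interval -0.82 to -0.10). Syp, synaptophysin of synaptic vesicles, gave 0.01 (95% interval -0.19 to 0.21). Slc17a6, the vesicular glutamate transporter of thalamic and other subcortical neurons, gave -1.46 (95% interval -3.00 to 0.09) over a range from 2.44 to 52.7 CPM within APP/PS1. Grm8, a presynaptic metabotropic glutamate receptor, gave -0.93 (95% interval -1.80 to -0.06).

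Gabra2, the alpha2 subunit of the GABA-A receptor, was the 1 of 21 GABA genes at the threshold, beside 0.81% higher and 2.06% lower of all genes. It had 143, 249.1, 176 and 262 CPM in APP/PS1 A2A mice, against 147, 137, 177, 133 and 147 CPM in APP/PS1 mice, with APP/PS1 A2A replicate 1 among the APP/PS1 values and replicate 3 just below the highest of them (0.49, SE 0.20, 95% interval 0.07 to 0.90). Without APP/PS1 A2A replicate 1 it gave 0.63. In A2A against WT mice it was -0.33 (95% interval -0.73 to 0.06), and the difference between the effects was 0.82 (95% interval 0.25 to 1.40, adjusted p = 0.9998). Of the 5 genes the study names as postsynaptic in one module, Gabrd gave -0.03, Htr7 0.14, Kcnj4 -0.10, Oprk1 0.45 and Tacr1 0.07, and every interval spanned 0. They varied over several-fold within each group, with Htr7 at 3.17 CPM in APP/PS1 A2A replicate 1 and 13.2 to 14.5 CPM in the other 3 mice.

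Of the genes that handle adenosine or carry its signal, few stood out. Adora1, the inhibitory A1 receptor, gave 0.12 (95% interval -0.25 to 0.48), Adora2b -0.15 (95% interval -0.52 to 0.22) and Adora3 -0.02 (95% interval -0.50 to 0.45). Slc29a3, a nucleoside transporter of lysosomes and mitochondria, had 15.7, 18.5, 15.7 and 13.5 CPM in APP/PS1 A2A mice, against 11.8, 12.5, 13.6, 14.8 and 13.4 CPM in APP/PS1 mice (0.26, 95% interval 0.04 to 0.49). Dpp4, the peptidase that binds adenosine deaminase in human cells, gave -0.93 (95% interval -1.85 to -0.01). These were 2 of 14 genes, in opposite directions, beside 0.81% higher and 2.06% lower of all genes, and the list's median was 0.00. None of the 32 genes of cAMP and PKA signalling had an unadjusted p under 0.05, and their median was -0.01. Prkaca, the main catalytic subunit of protein kinase A, had the smallest p of them (0.10, 95% interval -0.03 to 0.24).

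Homeostatic microglial genes were positive in 15 of 16 cases with a median of 0.11 and 0 at an unadjusted p under 0.05, and the median was -0.05 without APP/PS1 A2A replicate 1 and APP/PS1 replicate 4. Csf1r, the receptor that keeps microglia alive, gave 0.14 (95% interval -0.08 to 0.37). Disease-associated genes had a median of 0.00, and 1 of 30 was lower at the threshold, beside 2.06% of all genes. The median was -0.10 without APP/PS1 A2A replicate 1, with 8 genes positive and 22 negative, and without that mouse and APP/PS1 replicate 4 it was -0.12, with 5 positive and 25 negative. The gene at the threshold was Apoe, apolipoprotein E of astrocytes and activated microglia, with 1060, 1052, 1015 and 959 CPM in APP/PS1 A2A mice, against 1411, 1426, 1469, 1258 and 961 CPM in APP/PS1 mice. APP/PS1 replicate 5 was at the APP/PS1 A2A level and the other 4 APP/PS1 mice were above it (-0.35, SE 0.13, 95% interval -0.62 to -0.08). Spp1, osteopontin, gave -0.76 (95% interval -1.74 to 0.22) and Gpnmb 0.39 (95% interval -0.14 to 0.91), the last with 23.7 CPM in APP/PS1 A2A replicate 1 and at most 11.4 CPM in any other of the 9 mice. Without that mouse Gpnmb gave -0.03. Complement genes had a median of 0.11, or -0.06 without APP/PS1 A2A replicate 1, with 0 of 15 at the threshold, and C1qa gave 0.16 (95% interval -0.23 to 0.55) and C4b 0.19 (95% interval -0.15 to 0.52). Without the same mouse C1qa gave -0.06 and C4b 0.05.

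Interferon response genes, the antiviral programme also seen around amyloid, were positive in 26 of 31 cases with a median of 0.18, and 2 were at the threshold. Over all 18529 genes 8845 were positive and 0.81% were higher at the threshold. In A2A against WT mice the list's median was -0.22, with 3 genes positive and 28 negative. Cxcl10, the chemokine that interferon induces, had 4.25, 0.923, 0.635 and 0.667 CPM in APP/PS1 A2A mice, against 0.312, 0.433, 0.867, 0.852 and 0.551 CPM in APP/PS1 mice. APP/PS1 A2A replicate 1 stood far above the rest, and the remaining 3 of its group overlapped with APP/PS1 (1.41, SE 0.49, 95% interval 0.38 to 2.43). Dtx3l, an antiviral ubiquitin ligase, had 7.83, 9.17, 9.51 and 9.08 CPM in APP/PS1 A2A mice, against 6.87, 5.97, 6.94, 7.67 and 9.22 CPM in APP/PS1 mice (0.28, 95% interval 0.02 to 0.53). Without APP/PS1 A2A replicate 1 Cxcl10 gave 0.30, 9 of the 31 genes were positive and the list's median was -0.06. That mouse summed to 243 CPM over the list, against 155 to 169 CPM in the rest of its group and 129 to 211 CPM in APP/PS1. The core of the interferon-stimulated response element, searched on both strands, was in 16 of the 23 list genes with a RefSeq promoter (69.6%) and in 3.69% of all tested genes with one. In Cxcl10 it lay 213 bases before the start, in capitals in the 250 bases shown, on the minus strand.
Cxcl10, chr5:92348890-92349139: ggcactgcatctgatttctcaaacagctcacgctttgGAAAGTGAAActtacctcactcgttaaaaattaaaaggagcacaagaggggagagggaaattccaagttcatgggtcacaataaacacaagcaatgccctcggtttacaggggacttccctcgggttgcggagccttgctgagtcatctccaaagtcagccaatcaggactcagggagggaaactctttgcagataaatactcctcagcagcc

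Reactive astrocyte genes had a median of 0.04 over 19 genes, with Cxcl10, also of this list, the 1 at the threshold, beside 0.81% higher of all genes. Gfap, the filament protein of reactive astrocytes, had 1073, 652, 605 and 626 CPM in APP/PS1 A2A mice, against 817, 615, 705, 462 and 675 CPM in APP/PS1 mice (0.17, 95% interval -0.17 to 0.52), again highest in APP/PS1 A2A replicate 1, and -0.06 without it. Serpina3n, an acute phase protease inhibitor, had 87.4, 69.2, 91.3 and 78.3 CPM in APP/PS1 A2A mice, against 61.7, 42.6, 33.5, 61.2 and 89.7 CPM in APP/PS1 mice (0.50, 95% interval -0.06 to 1.05), and without APP/PS1 A2A replicate 1 the whole list had a median of -0.08. Of the genes also measured by qPCR, Aqp4, the water channel, gave 0.14 (95% interval -0.12 to 0.40), and the gap junction genes Gjb6 and Gja1 -0.19 (95% interval -0.66 to 0.27) and 0.04 (95% interval -0.11 to 0.19). Pycard, the adaptor of inflammasomes, gave 0.29 (95% interval -0.15 to 0.73), and 0.12 without APP/PS1 A2A replicate 1.

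Genes that make, clear or modify amyloid and tau showed 0 of 15 and 0 of 16 at the threshold, with medians of 0.01 and 0.04. Mapt, tau itself, had 598, 669.9, 627 and 651 CPM in APP/PS1 A2A mice, against 581, 586, 557, 588 and 694 CPM in APP/PS1 mice (0.08, 95% interval -0.09 to 0.26). Mme, neprilysin, which degrades amyloid-beta, gave -0.16 (95% interval -0.46 to 0.13). Among 12 calpain genes Capn11, a calcium-activated protease best known from testis, was the 1 at the threshold, beside 2.06% lower of all genes. It had 0.705, 0.565, 0.635 and 0.861 CPM in APP/PS1 A2A mice, against 2.16, 4.03, 5.98, 0.826 and 1.06 CPM in APP/PS1 mice, so that every APP/PS1 mouse except replicate 4 was above every APP/PS1 A2A mouse, replicate 5 by little (-2.01, SE 0.61, 95% interval -3.30 to -0.73).

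Blood and neighbouring tissue varied widely between libraries of one group. Hba-a1, alpha globin of red blood cells, had 1.003, 1.02, 1.38 and 0.689 CPM in APP/PS1 A2A mice, against 1.73, 10.1, 2.01, 4.05 and 24.5 CPM in APP/PS1 mice. Every APP/PS1 A2A mouse was below every APP/PS1 mouse, but APP/PS1 replicates 1 and 3 were close to them (-3.05, SE 0.71, 95% interval -4.54 to -1.56). All 5 red blood cell genes were lower at the unadjusted threshold, beside 2.06% of all genes, with a median of -2.80. Without APP/PS1 replicates 2 and 5 only 1 was, beside 548 of all genes, with a median of -0.51. Hba-a1 and Hba-a2 are near-identical copies, so their reads may be shared. The 12 choroid plexus genes were all negative, with a median of -1.0002, but 0 were at the threshold, and the median was 0.30 without APP/PS1 A2A replicate 1 and APP/PS1 replicate 4. The 8 cortical neuron genes had a median of -0.33, with 7 negative and 1 lower at the threshold, beside 2.06% of all genes. That gene was Tbr1, a factor of deep-layer cortical neurons (-0.57, 95% interval -1.06 to -0.09). With 1 mouse left out at a time the median ran from -0.40 without APP/PS1 replicate 5 to -0.16 without APP/PS1 replicate 2. The summed levels overlapped, at 125 to 141 CPM in APP/PS1 A2A and 124 to 206 CPM in APP/PS1. Myelin genes were positive in 14 of 14 cases with a median of 0.13 and 0 at the threshold. Without APP/PS1 A2A replicate 2 their median was -0.16. The 10 dentate granule cell genes had a median of 0.01, with 6 positive and 4 negative. Without APP/PS1 A2A replicate 1 it was -0.44, with 0 positive and 10 negative. The 8 genes of CA1 pyramidal neurons had a median of -0.18, with 2 positive and 6 negative, and -0.26 without that mouse. CA2 and CA3 genes went the other way, with 7 of 12 positive and a median of 0.13, and 0.31 without it. Plvap, of fenestrated vessels, was the 1 of 14 endothelial genes at the threshold, beside 2.06% lower of all genes (-0.60, 95% interval -1.02 to -0.18). The part of such tissue, or of these neuron types, in the gene values above was not tested gene by gene.

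The mRNAs of proteins that the study's mass spectrometry found altered between the same genotypes were read as well. The lists used held 116 genes for less abundant and 61 for more abundant proteins, a split slightly different from that in the study's text. Of the 115 tested genes whose protein was less abundant in APP/PS1 A2A than in APP/PS1, 0 were higher and 2 lower at an unadjusted p under 0.05, and the median was 0.04. The 2 were Atg5, of autophagosome formation (-0.17, 95% interval -0.29 to -0.04), and Cbarp, a modulator of calcium channels (-0.16, 95% interval -0.33 to 0.00). Of the 60 whose protein was more abundant, 0 were higher and 2 lower, Cox5b and Ndufb5, with a median of -0.01. Both shares of lower genes stand beside the 2.06% of all genes. The 79 genes on the study's list of lower transcripts in APP/PS1 A2A relative to A2A were negative here in 79 of 79 cases, 71 of them at an unadjusted p under 0.05, with a median of -0.46. That list was chosen on the same 4 APP/PS1 A2A libraries, so it is not independent evidence of direction. Its summed level was 2255 to 2614 CPM in APP/PS1 A2A and 2559 to 4035 CPM in APP/PS1, lowest in replicate 5. A median GC content of 58.8% set these genes above the 50.2% of all genes, and with offsets for GC content and length 66 of the 79 were lower at the threshold and the median was -0.40. The companion list of 35 transcripts higher in APP/PS1 A2A relative to A2A, chosen on the same 4 libraries and so not independent either, was positive in 32 cases, 6 of them at an unadjusted p under 0.05 beside 0.81% of all genes, with a median of 0.23. Its median was 0.07, with 24 positive, without APP/PS1 A2A replicate 1. The 16 transcripts listed as higher in both APP/PS1 comparisons were chosen with libraries of both groups compared here, so they are not independent either. They were positive in 15 cases, 0 at the threshold, with a median of 0.10. That median was 0.01 without the same mouse and -0.14, with 4 positive, when APP/PS1 replicate 4 was left out as well.

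The receptor contrast without amyloid, A2A against WT mice, called 0 genes (0%) in edgeR, with 367 genes higher (1.98%) and 270 lower (1.46%) at an unadjusted p under 0.05. DESeq2 with default options called 1, Capn11, with 763 genes at an unadjusted p under 0.05, and with a prior it called 0, with 765. limma-voom called 0 without and 0 with weights, with 591 and 1071 genes at that p. The difference between the receptor contrasts with and without amyloid called 0 genes in edgeR (0%), with 120 positive (0.648%) and 584 negative (3.15%) at that threshold and a smallest adjusted p of 0.572. DESeq2 called 1 with default options (adjusted p = 5.81e-05) and 1 with a prior (adjusted p = 0.00341), Capn11 in both, with 834 and 772 genes at an unadjusted p under 0.05. limma-voom called 0 without and 0 with weights, with 662 and 1592 such genes. Capn11 had 4.01, 0.732, 7.38, 2.24 and 1.76 CPM in A2A and 0.725, 0.349, 0.342, 0.334 and 0.739 CPM in WT mice. Its log2 fold change between the labelled groups was -2.01 with amyloid and 2.67 without it, a difference of -4.68 (95% interval -6.48 to -2.89). Its levels spread over several-fold within both A2A and APP/PS1. The next smallest p-values for the difference belonged to Aes, a Groucho-family co-repressor (-0.55, 95% interval -0.83 to -0.27), Tlnrd1 (-0.97, 95% interval -1.46 to -0.47), Pcsk1n (-2.50, 95% interval -3.78 to -1.22) and Ppdpf (-0.71, 95% interval -1.09 to -0.34). Over 14933 genes above 1 CPM, the log2 fold changes of the 2 receptor contrasts, which share no library, had a Pearson correlation of 0.16 and a Spearman correlation of 0.04 across genes, which are not independent replicates and share base composition and other features between libraries. Of the 382 genes lower in APP/PS1 A2A at an unadjusted p under 0.05, 289 had a positive log2 fold change in A2A against WT, with a median of 0.14, and of the 150 higher genes 82 did. Over all 18529 genes, 9317 were positive in A2A against WT.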

How the data were processed

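Hippocampal RNA of 19 female mice, 1 library a mouse, was sequenced from stranded poly-A libraries as single reads. The authors aligned the reads to mm10 with STAR 2.5.3a and tallied reads by gene with HTSeq 0.6.1p1, so the deposited table holds these raw counts. Whether the counting used strand is not given in the sources used here. The table's other columns hold gene annotation and the authors' own comparisons (log2 fold changes and p-values from DESeq2 1.16.1), and these comparisons were not used.

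All 19 mice were fitted together as 4 group means with edgeR 4.0.16 in R 4.3.3 (quasi-likelihood test, TMM scaling, filterByExpr at a minimum count of 10), with 21305902 to 53717373 counts a mouse. The table lists 35842 genes, of which 35640 had a count and 18529 were tested. Calls required a p below 0.05 after Benjamini-Hochberg adjustment with a log2 fold change beyond 0.32 either way, and intervals are 95% intervals of the fit. The fits were tested on simulated data. Replicates are separate mice, numbered in accession order, so the numbers pair nothing. Alternatives used DESeq2 1.42.0, limma 3.58.1 and sva 3.50.0, other scalings and filters, offsets for GC content and length, and each mouse left out in turn. Leaving out the 2 APP/PS1 mice with most haemoglobin RNA, or the mice with the least and the most choroid plexus RNA, was chosen after seeing the data.

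Named genes were the transgenes, adenosine receptors, qPCR genes and synaptic proteins of the study, the 15 genes of smallest p in each direction, up to 4 genes of smallest p in each of 51 lists, and the 5 of smallest p for the difference between the receptor's effects. The comparison and the lists were chosen with earlier results of these data known. Promoters are those of RefSeq on GRCm38.p6, matched by symbol for 12924 of the tested genes. Some genes of the named set are not reported here.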

Additional observations from a re-analysis of the deposited data

Results flagged for a closer look

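In 22 of 216 sets of values looked at, each a gene or summed list within 1 group, the highest or lowest mouse lay far from the others of its group by Dixon's test. About 1 in 20 would for independent, normally distributed values. Many of the genes were named by their p in these same mice, and some sets share genes. The number of sets is therefore not read against that rate. Of the 22 sets, 10 were in APP/PS1 A2A replicate 1. The causes were not tested.

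Adora2a at 10.3 CPM (the others 1.27 to 1.96 CPM), Drd1 at 25.9 CPM (the others 3.85 to 6.90 CPM), Rpl27 at 2.33 CPM (the others 1.36 to 1.497 CPM) and Gpnmb at 23.7 CPM (the others 9.64 to 10.2 CPM) were high in APP/PS1 A2A replicate 1. Cxcl10 at 4.25 CPM (the others 0.635 to 0.923 CPM), Gfap at 1073 CPM (the others 605 to 652 CPM), Pycard at 5.34 CPM (the others 3.36 to 3.66 CPM) and the summed type I interferon response list at 243 CPM (the others 155 to 169 CPM) were high in APP/PS1 A2A replicate 1. The summed reactive astrocytes list at 1353 CPM (the others 830.5 to 890.0 CPM) was high in APP/PS1 A2A replicate 1. Pomc at 16.4 CPM (the others 0.721 to 1.21 CPM) and the summed striatal medium spiny neuron markers list at 481 CPM (the others 416 to 425 CPM) were high in APP/PS1 replicate 4. Gm28294 at 0.796 CPM (the others 0.490 to 0.542 CPM) was high in APP/PS1 A2A replicate 4. Gm28294 at 0.310 CPM (the others 0.212 to 0.240 CPM) was high in APP/PS1 replicate 3. Egr4 at 10.1 CPM (the others 2.39 to 4.39 CPM), Junb at 52.3 CPM (the others 13.3 to 20.7 CPM) and Cbarp at 179 CPM (the others 146 to 151 CPM) were high in APP/PS1 replicate 1. Mrpl34 at 3.08 CPM (the others 4.39 to 4.45 CPM) was low in APP/PS1 A2A replicate 4. Homer1 at 79.0 CPM (the others 121 to 130.4 CPM) was low in APP/PS1 replicate 3. Htr7 at 3.17 CPM (the others 13.2 to 14.5 CPM) was low in APP/PS1 A2A replicate 1. Prkaca at 182 CPM (the others 163 to 166 CPM) and Mapt at 694 CPM (the others 557 to 588 CPM) were high in APP/PS1 replicate 5. Ppdpf at 9.10 CPM (the others 7.88 to 7.97 CPM) was high in APP/PS1 A2A replicate 2.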

How the results depend on the processing

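No alternative with edgeR or limma called a gene in APP/PS1 A2A versus APP/PS1, and neither did DESeq2 with default options, while DESeq2 with a prior on fold changes called 2. In A2A versus WT mice DESeq2 with default options called 1, and for the difference between the effects it called 1 with default options and 1 with a prior. The causes were not tested. The 150 genes on the higher side at an unadjusted p under 0.05 became 336 with sample quality weights, 441 without a filter on low counts, 253 without APP/PS1 replicates 2 and 5 and 555 without APP/PS1 A2A replicate 1 and APP/PS1 replicate 4. The 382 on the lower side became 724, 616, 548 and 832 under the same settings. Leaving out 1 mouse at a time gave 107 to 317 higher and 237 to 710 lower genes, with most of both without APP/PS1 replicate 5 and fewest lower without APP/PS1 A2A replicate 4. Adora2a gave -0.0070 without APP/PS1 A2A replicate 1 and APP/PS1 replicate 4. Of 5182 values of the 226 named genes under alternatives, 2 others took another call, Hba-a1 and Hba-a2 with the DESeq2 prior, and 100 changed sign. No paired analysis was possible because the mice carry no replicate number that marks a shared litter, batch or day. With 4 and 5 mice the 95% interval reached a median of 0.30 to either side on the log2 scale, which limits what these data can show.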

Other observations

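Stress genes, which handling of tissue can also induce, were negative in 8 of 12 cases, and 2 of the 12 were lower at an unadjusted p under 0.05 in edgeR's test. Over all 18529 genes 9684 were negative and 2.06% were lower at that threshold. Ddit4, an inhibitor of mTOR signalling that stress hormones and hypoxia induce, had 33.0, 40.6, 32.5 and 34.9 CPM in APP/PS1 A2A mice, against 65.1, 43.7, 43.9, 52.1 and 37.9 CPM in APP/PS1 mice (-0.46, SE 0.14, 95% interval -0.75 to -0.17). The groups overlapped only at APP/PS1 A2A replicate 2 and APP/PS1 replicate 5. Hspa1a, an inducible heat shock protein, had 2.90, 2.39, 3.79 and 3.14 CPM in APP/PS1 A2A mice, against 5.50, 3.97, 3.44, 3.86 and 4.09 CPM in APP/PS1 mice (-0.45, 95% interval -0.86 to -0.05), with APP/PS1 replicate 1 highest for both genes as it was for Egr4 and Junb. The list's median was -0.09, and -0.04 without APP/PS1 replicate 1.

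Clock genes had negative log2 fold changes in 14 of 17 cases with a median of -0.07, and 0 were at an unadjusted p under 0.05. Dbp, a clock output factor whose level depends on the hour of the day, had 56.5, 49.3, 35.9 and 42.6 CPM in APP/PS1 A2A mice, against 65.3, 54.0, 67.5, 53.8 and 42.7 CPM in APP/PS1 mice (-0.30, 95% interval -0.66 to 0.06). The times of day at which the hippocampi were taken are not given in the sources used here. MHC and antigen presentation genes were negative in 8 of 14 cases with a median of -0.04, and Cd74, the invariant chain, gave -0.46 (95% interval -1.50 to 0.59).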
